A study of Homo sapiens with 12 samples.

Results

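TAF15 was depleted with a short hairpin RNA (shRNA) in A549 cells, and the transcriptome of these cells was set against that of cells carrying the control hairpin construct, sh-NC. A gene counts as a member of the comparison when it is protein-coding, reaches 5 FPKM or more (fragments normalised for transcript length and library total) in at least 1 of the 3 libraries, and has both sh-TAF15 libraries on the same side of sh-NC. This rule took 6337 genes of the 57879 in the files, out of 8491 protein-coding genes at that level. A549 is a human lung adenocarcinoma line. Both groups are stable A549 lines made with lentiviral vectors and kept in DMEM with 10% fetal bovine serum, with the genotype labels TAF15 knockdown and WT, and no drug treatment or time course is named for either. The hairpin sequence, the number of hairpins and whether replicates came from separate infections are not given in the sources used here. The labels list 12 samples in 4 groups of 3 biological replicates, and 8 have a file. The comparison uses replicate 2 of sh-NC beside replicates 2 and 3 of sh-TAF15, whose values are always given in that order. The 3 vector and 2 TIF1γ libraries of the series lend only their spread to the test.

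TAF15 belongs with EWSR1 to the FET family, RNA- and DNA-binding proteins with a low-complexity domain that take part in transcription and splicing. It was first found as a factor associated with TBP in a fraction of TFIID, the complex that places RNA polymerase II at promoters. FET proteins are best known in cancer as partners in oncogenic fusion genes. IL6, an inflammatory cytokine that signals through the receptor chain gp130, and CDH1 (E-cadherin, the adhesion molecule of epithelial junctions) are followed here beside the target.

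The FPKM values of a library summed to 915687, 926260 and 1138410, and 12440, 12601 and 12582 genes reached 1 FPKM. Steps between the lowest values put the depth of the sh-TAF15 libraries at 0.917 and 0.879 of that of sh-NC, while the depth in reads is unknown. With 1 sh-NC library there is no SD for the control. The lung epithelial origin was checked on a list of A549 genes. The simple keratin KRT8 stood at 1397, 1855 and 2235 FPKM and the quinone reductase NQO1 at 1715, 1555 and 2238. The tumour suppressor CDKN2A, deleted in this line, was listed at 0, 0 and 1.895. Some markers of the line were almost absent from the sh libraries. KRT19 stood between 0.243 and 0.775 FPKM there and between 26.9 and 41.6 in the 3 vector libraries, and CPS1, the urea-cycle synthetase, between 0.150 and 0.290 against 3.67 to 6.99. EPCAM was at 0.436, 0.555 and 1.87 FPKM. Markers of other cell types were mostly at the bottom of the scale: 12 of 16 leukocyte, 7 of 10 fibroblast and 7 of 9 endothelial markers were under 1 FPKM in all 3 libraries. Their summed level ran from 31.9 to 39.9 FPKM for leukocyte, from 5.06 to 8.34 for fibroblast and from 28.8 to 52.9 for endothelial markers, each lowest in sh-NC. Of 13 neuroendocrine markers 8 were under 1 FPKM, and the sum of 987, 1080 and 1420 FPKM came mostly from UCHL1 (723, 749 and 1021) and TUBB3 (243, 297 and 371.5). The part of these markers in the results was not tested. In bulk RNA, fewer cells of a type and less RNA per cell cannot be told apart.

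The targeted gene is listed under the identifier ENSG00000172660. It stood at 107 FPKM in sh-NC and at 26.3 and 17.4 in the sh-TAF15 libraries (mean 21.8 ± 6.27, SD, n = 2). Both knockdown libraries also lay under all 5 others of the series, which ran from 35.0 to 68.1 FPKM. The log2 fold change was −2.32 (SE 0.41), and the gene missed the threshold of the test over all genes (limma with Benjamini-Hochberg adjustment, adjusted p = 0.0685). The log2 fold change of ENSG00000172660 passed it when vector replicate 1 or vector replicate 2 was left out of the fit (limma adjusted p = 0.0308 and 0.000547). It missed the threshold when the trend over transcript GC content was removed (limma adjusted p = 0.169). The annotation at hand lists TAF15 under another identifier and gives this one no gene type, so the target itself is not among the 6337 members. EWSR1, of the same family, stood at 100.2, 91.0 and 89.5 FPKM, a log2 fold change of −0.21, and did not pass the test (limma adjusted p = 0.962).

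**Figure D1:**
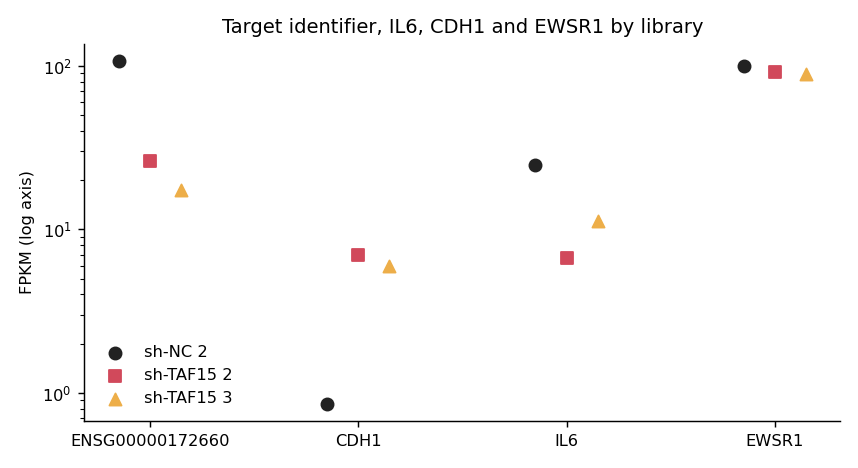
FPKM on a log axis for the target identifier, CDH1, IL6 and EWSR1 in the sh-NC library and both sh-TAF15 libraries, 1 point per library. The target lies at 107 FPKM in sh-NC and at 26.3 and 17.4 in sh-TAF15, CDH1 lies higher and IL6 lower in both sh-TAF15 libraries, and EWSR1 is nearly level.

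IL6 stood at 24.7 FPKM in sh-NC and at 6.67 and 11.3 in the knockdown (log2 fold change −1.46, SE 0.39). CDH1 stood at 0.857 FPKM in sh-NC and at 6.96 and 6.004 in the knockdown (1.92, SE 0.46). The groups do not overlap for either gene, which is what the rule requires and which held for 6337 of the 8491 genes. Neither gene was called over all genes (limma adjusted p = 0.316 and 0.233).

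Promoter sequence is shown for IL6 and EMP1 among the lower members, AGR2 among the higher ones, and the paralogs LGALS9B and LGALS9C, which are the called members. IL6, EMP1 and AGR2 were not called, and each of their windows holds a motif match that most searched windows lack. Each window runs from 250 bases before to 50 after the annotated start, from RefSeq on GRCh38.p14, written 5′ to 3′ on the gene's strand. The table of promoters used holds no entry for CDH1, DUSP5 and FOSL1. For IL6, at chr7:22726950-22727249 on the plus strand, capitals mark the match to the NF-kB motif, which is GGGA, any base and then TTTCC.
IL6: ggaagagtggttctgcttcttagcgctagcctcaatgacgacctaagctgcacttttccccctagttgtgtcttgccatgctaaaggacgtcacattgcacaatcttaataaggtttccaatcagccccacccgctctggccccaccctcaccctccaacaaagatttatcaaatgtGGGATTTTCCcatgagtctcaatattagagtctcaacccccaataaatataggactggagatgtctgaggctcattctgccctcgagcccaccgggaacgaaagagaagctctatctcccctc
For EMP1, at chr12:13196476-13196775 on the plus strand, capitals mark the matches to the AP-1 motif TGANTCA.
EMP1: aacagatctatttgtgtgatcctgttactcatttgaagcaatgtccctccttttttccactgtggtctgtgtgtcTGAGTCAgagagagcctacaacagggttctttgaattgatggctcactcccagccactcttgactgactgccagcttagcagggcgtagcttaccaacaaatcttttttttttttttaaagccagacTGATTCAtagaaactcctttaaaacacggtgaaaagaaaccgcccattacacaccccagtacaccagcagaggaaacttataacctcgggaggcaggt
For AGR2, at chr7:16804950-16805249 on the minus strand, capitals mark the match to CAGGTG, the E-box bound by SNAI and ZEB repressors.
AGR2: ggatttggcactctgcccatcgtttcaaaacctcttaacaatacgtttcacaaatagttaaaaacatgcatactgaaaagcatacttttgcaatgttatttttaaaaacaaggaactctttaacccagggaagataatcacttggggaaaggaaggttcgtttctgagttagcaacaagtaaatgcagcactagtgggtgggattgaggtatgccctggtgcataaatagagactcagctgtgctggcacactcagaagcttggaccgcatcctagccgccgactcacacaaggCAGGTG
For LGALS9B, at chr17:20467490-20467789 on the minus strand, and LGALS9C, at chr17:18476539-18476838 on the plus strand, capitals mark the bases that differ between the aligned windows, ends included.
LGALS9B: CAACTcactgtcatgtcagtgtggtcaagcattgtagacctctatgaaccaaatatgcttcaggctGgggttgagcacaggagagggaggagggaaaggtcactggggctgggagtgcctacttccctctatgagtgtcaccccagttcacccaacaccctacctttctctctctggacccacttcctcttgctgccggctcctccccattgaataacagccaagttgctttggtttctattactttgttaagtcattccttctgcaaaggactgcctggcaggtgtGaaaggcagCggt
LGALS9C: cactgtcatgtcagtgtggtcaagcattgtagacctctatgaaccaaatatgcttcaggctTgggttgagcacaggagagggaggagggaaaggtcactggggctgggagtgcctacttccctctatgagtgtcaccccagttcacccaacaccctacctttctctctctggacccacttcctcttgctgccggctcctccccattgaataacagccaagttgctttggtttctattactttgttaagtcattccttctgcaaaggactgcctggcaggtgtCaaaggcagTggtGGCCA
The galectin windows share 292 of 295 aligned bases, with the windows offset by 5 bases at the ends.

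The 6337 members split into 3501 genes higher and 2836 lower in both sh-TAF15 libraries, which is 41.2% and 33.4% of the 8491 genes. In the other 2154 genes sh-NC lay between the sh-TAF15 libraries or level with one. These shares follow from the rule and carry no test. Most differences were small. Taking for each member the sh-TAF15 library nearer to sh-NC, 3648 differed by less than 0.25 in log2(FPKM + 1), 1808 by 0.25 to 0.5, 752 by 0.5 to 1, and 129 by 1 or more. Of those 129 genes, 95 were higher (1.12% of the 8491) and 34 lower (0.400%). The difference exceeded the gap between the sh-TAF15 libraries for 2957 members. The differences of both libraries from sh-NC had a Pearson correlation of 0.705 over the 8491 genes, and they share the sh-NC library. Before scaling, the median difference over these genes was 0.01 in replicate 2 and 0.10 in replicate 3. At the 5 FPKM limit, ZBED4 entered with 5.00 FPKM in sh-NC (4.27 and 2.96 in the knockdown) and NOTCH3 with 5.00 in replicate 2, while CEP112 at 4.99 and NAT1 at 4.98 as their highest values stayed outside.

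**Figure D2:**
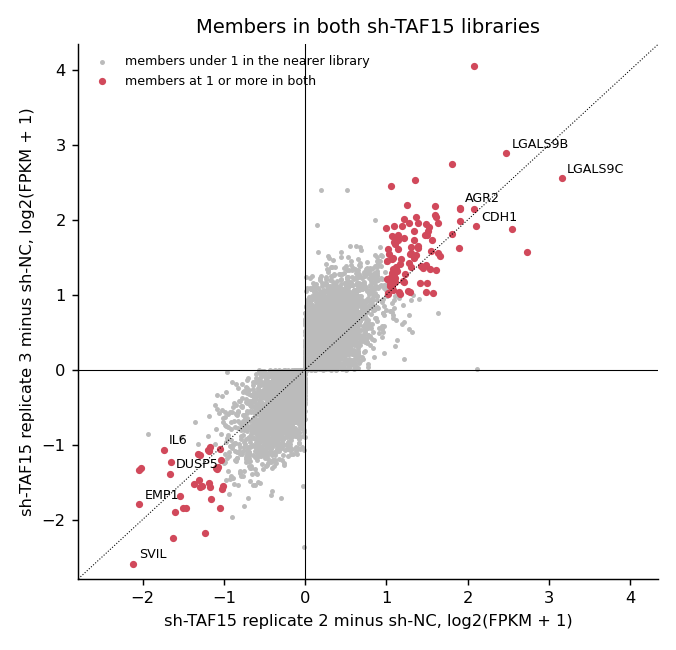
Difference from sh-NC in log2(FPKM + 1) for each member, sh-TAF15 replicate 2 on the x axis and replicate 3 on the y axis, with the dotted line marking equal values. Points in red are the 129 members at 1 or more in both libraries, 95 of them at the upper right, and the upper left and lower right are empty by the rule.

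A limma value was available for 6334 members. Over all 13907 genes tested, 7 were called higher and 1 lower (0.0503% and 0.00719%), and 2 of these calls are members, LGALS9B and LGALS9C. Leaving out 1 library moved these counts to between 4 and 39 higher and between 0 and 10 lower, with vector replicate 2 left out giving 39 and 10 and vector replicate 3 giving 4 and 0. With the trend over transcript GC content removed, neither was called (lowest limma adjusted p among members 0.0549), while their log2 fold changes were 2.40 and 2.57, against 2.57 and 2.74 with it. An unadjusted p under 0.05 was reached by 281 higher and 166 lower members of the 6334. The rule used the same values, which can raise these counts, so they are no separate result. Over all 13907 genes tested, 496 were higher and 288 lower at that level (3.57% and 2.07%). The members KRT8, KRT18 and FTL have no limma value because each is listed at 0 in a library outside this comparison. FTL, the ferritin light chain, stood at 14970, 21770 and 33399 FPKM as listed values.

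The lower members with the largest differences held a membrane protein, actin and vesicle scaffolds, an ETS factor and secreted proteins. EMP1, a tetraspan membrane protein of epithelia, stood at 49.4 FPKM in sh-NC and at 11.2 and 13.5 in the knockdown (log2 fold change −1.97, SE 0.35, limma adjusted p = 0.0685). SVIL, the actin-binding protein supervillin, stood at 15.7, 2.85 and 1.77 FPKM (−2.37, SE 0.76, limma adjusted p = 0.696). SVIL also ranged from 3.53 to 18.3 FPKM among the 3 vector libraries, so it also varied widely within that group. ERC1, a scaffold of vesicle docking sites, stood at 12.7, 3.44 and 1.904 FPKM. ETS1, a transcription factor downstream of RAS signalling, stood at 11.1, 2.97 and 2.23 FPKM. AKAP12, an anchor of protein kinase A, stood at 26.9, 9.13 and 6.72 FPKM. In these 5 genes both sh-TAF15 libraries were under sh-NC, as the rule requires.

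THBS1, the matricellular protein thrombospondin 1, stood at 7.69, 1.98 and 1.70 FPKM. HMGA2, an architectural chromatin protein of embryonic and tumour cells, stood at 38.0, 14.9 and 12.2 FPKM (−1.49, SE 0.38). DUSP5, the nuclear ERK phosphatase, stood at 38.0, 11.3 and 13.9 FPKM. Further members of the 15 largest lower differences were the ubiquitin ligase MARCH4 (11.9, 3.55 and 2.58 FPKM), FAM129A (6.72, 1.98 and 1.67), the metallothionein MT1B (11.6, 2.05 and 3.96), the adenylate kinase AK5 (14.6, 2.83 and 5.28), the ubiquitin-activating enzyme UBA6 (8.11, 2.69 and 2.27) and the zinc finger gene ZNF778 (7.75, 1.80 and 2.72). MT1B has close paralogs between which reads can be split, so its values are uncertain. Of the 15 genes, 14 had an unadjusted p under 0.05 and 0 were called, with adjusted p values in limma from 0.0685 to 0.888. The 15 genes were chosen by the size of their difference in the same libraries, which favours low p values and a kept sign. The nearer library differed by 1.23 to 2.12 log2 units, and all 15 kept their sign and at least 1 log2 unit with the GC trend removed.

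**Figure D3:**
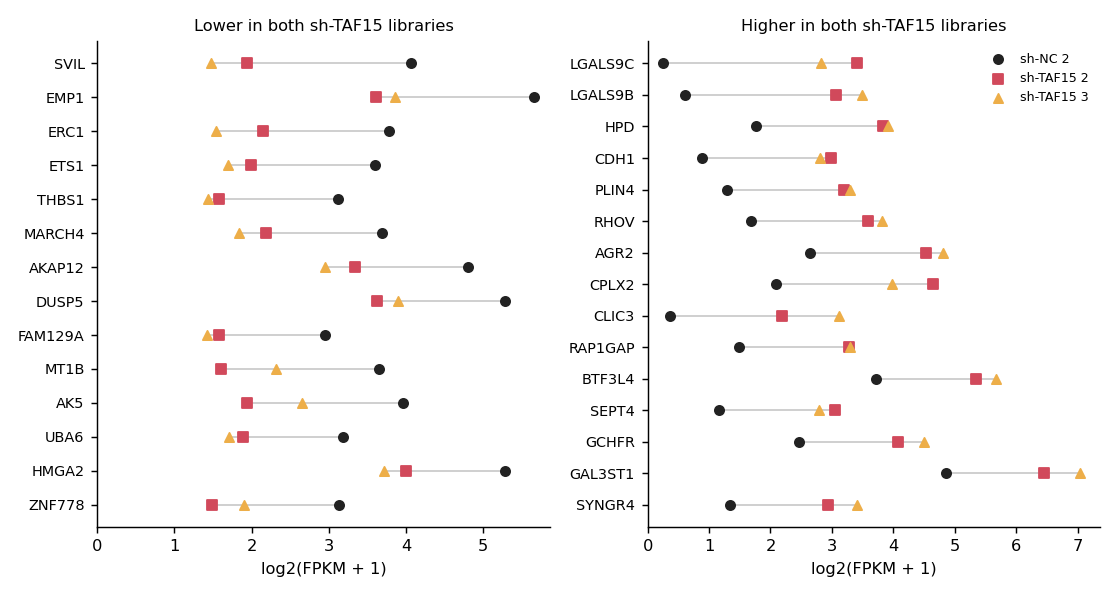
log2(FPKM + 1) of 14 of the 15 lower members (left) and of the 15 higher members (right) with the largest difference in the nearer sh-TAF15 library, 1 point per library and a grey line over the range. In each row the sh-TAF15 points lie on 1 side of sh-NC by the rule, at a distance from each other that is widest for CLIC3 (3.54 and 7.64 FPKM), and LGALS9C, at 0.194 FPKM in sh-NC, starts from the lowest control level on the right.

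Among the higher members, LGALS9B and LGALS9C rose. They are the galectin-9 paralogs, sugar-binding proteins of the tandem-repeat kind. LGALS9B stood at 0.517 FPKM in sh-NC and at 7.43 and 10.3 in the knockdown (log2 fold change 2.57, SE 0.37, limma adjusted p = 0.0198). LGALS9C stood at 0.194, 9.67 and 6.04 FPKM (2.74, SE 0.42, limma adjusted p = 0.0342). Their best matching transcripts are identical at 1701 of 1713 aligned bases (99.3%), so the split of reads between them is uncertain, and the replicate with the higher value differs between the copies. LGALS9 itself shares 96.2% with LGALS9B and stood at 0.342, 1.16 and 1.46 FPKM (0.72, limma adjusted p = 0.894). Both calls were lost in a fit of the 3 sh libraries (limma adjusted p = 0.233). The test of the log2 fold change of LGALS9B and that of the log2 fold change of LGALS9C also missed the threshold without vector replicate 3 (limma adjusted p = 0.0563 and 0.108), without TIF1γ replicate 2 (0.0868 for each) and without TIF1γ replicate 3 (0.0859 for each). LGALS9C missed it without sh-TAF15 replicate 2 (limma adjusted p = 0.11), and LGALS9B without replicate 3 (0.103).

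AGR2, a protein disulfide isomerase of secretory epithelium, stood at 5.23 FPKM in sh-NC and at 22.3 and 26.9 in the knockdown (1.96, SE 0.36, limma adjusted p = 0.0697). GAL3ST1, the sulfotransferase that makes sulfatide, stood at 27.8, 86.6 and 129.9 FPKM (1.83, SE 0.33, limma adjusted p = 0.0685). RHOV, an atypical small GTPase, stood at 2.20, 10.97 and 13.1 FPKM (1.94, SE 0.34, limma adjusted p = 0.0685). PLIN4, a lipid droplet coat protein, stood at 1.46, 8.22 and 8.76 FPKM (1.87, SE 0.34, limma adjusted p = 0.0685). These 4 genes just missed the adjusted threshold of 0.05. HPD, an enzyme of tyrosine breakdown, stood at 2.39, 13.3 and 14 FPKM, and GCHFR, the feedback regulator of GTP cyclohydrolase I, at 4.51, 15.8 and 21.7. BTF3L4 stood at 12.1, 39.6 and 50 FPKM, the only gene of the 15 besides GAL3ST1 above 10 FPKM in sh-NC.

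CPLX2, a complexin that binds SNARE complexes, stood at 3.27, 24.0 and 14.8 FPKM. RAP1GAP, which switches off the GTPase RAP1, stood at 1.79, 8.74 and 8.76 FPKM. The chloride intracellular channel protein CLIC3 (0.292, 3.54 and 7.64 FPKM), the septin SEPT4 (1.23, 7.30 and 5.90) and the synaptogyrin SYNGR4 (1.54, 6.67 and 9.68) complete the 15 together with CDH1. These 15 genes were chosen by the size of their difference in the same libraries, which favours low p values and a kept sign. All 15 had an unadjusted p under 0.05 and kept their sign and at least 1 log2 unit with the GC trend removed. Their median transcript GC content was 58.7% against 46.3% for the 15 lower genes, and their median gene span 19.9 kb against 114 kb.

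The gene lists below are described by counts over their genes at 5 FPKM or more, beside 41.2% higher and 33.4% lower for all 8491 genes, and by the median log2 fold change of their tested genes, beside −0.0031 for all genes tested. No list was tested as a set. Outside the galectins, limma called 0 of the listed genes. The number of tested genes at an unadjusted p under 0.05, higher and then lower, is given with each list where it exceeds 0. Tested genes include some under 5 FPKM, so this number can exceed that among the genes at 5 FPKM. Splits after scaling or with the GC trend removed are given where they differ most. The share of higher genes among all members also moved, from 55.2% to 48.4% after scaling and to 49% with the GC trend removed. A shift of a list towards lower under these settings is therefore in part general.

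**Figure D4:**
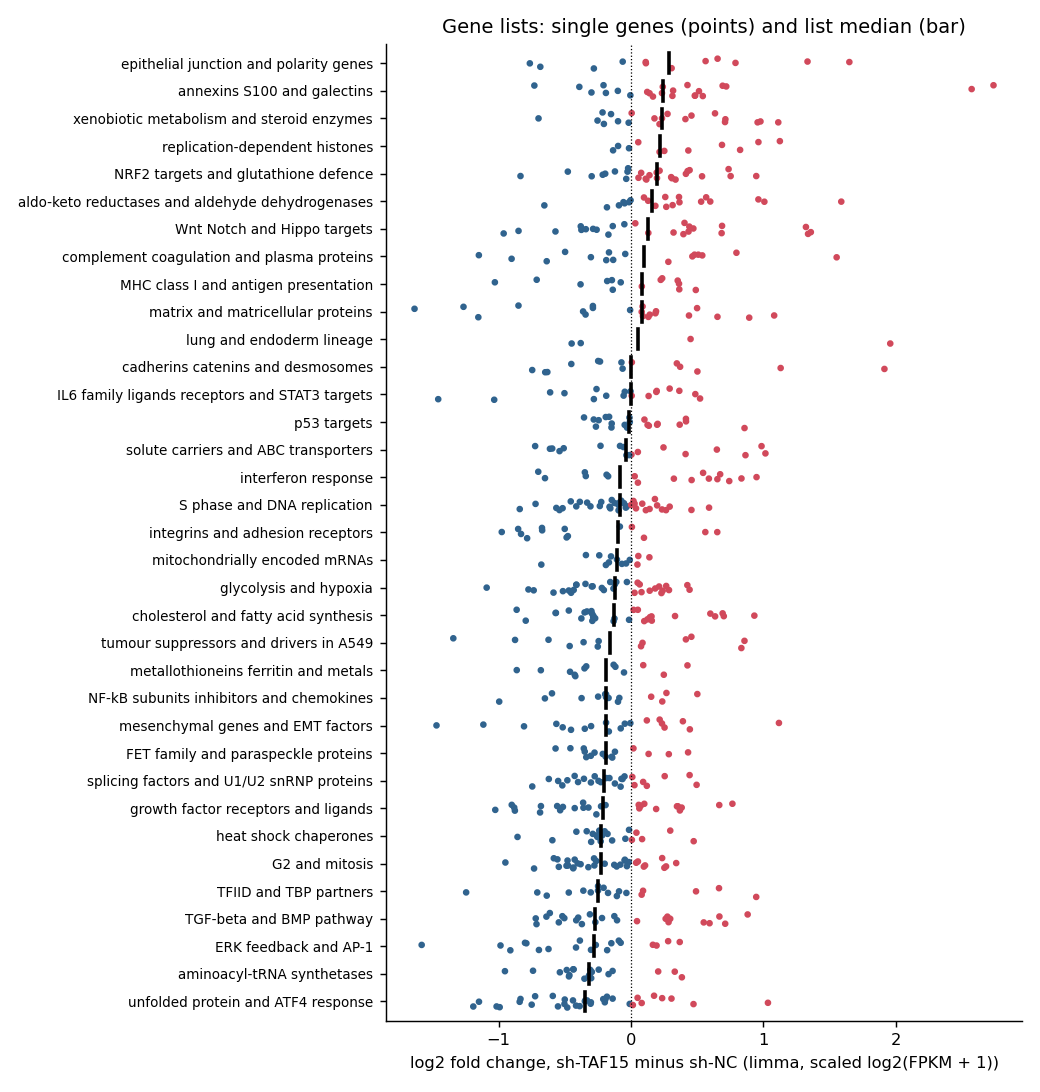
log2 fold change of sh-TAF15 minus sh-NC for each gene at 5 FPKM or more (points, red above 0 and blue below) of 35 gene lists, with the median over all tested genes of the list as a bar, ordered by median. Medians run from −0.35 for unfolded protein and ATF4 genes to 0.29 for epithelial junction genes, and single genes of every list lie on both sides of 0.

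In the lists of FET and paraspeckle, splicing and TFIID genes, more genes were lower than higher, with small list medians. Of 16 FET and paraspeckle genes, 4 were higher and 9 lower (median −0.19), and 2 and 11 after scaling. MATR3, a nuclear matrix RNA-binding protein, stood at 108.6, 84.1 and 69.0 FPKM, and HNRNPU, a scaffold attachment factor, at 191, 154 and 138. Of 26 splicing genes, 5 were higher and 14 lower (median −0.21). SRSF1 stood at 235, 180.0 and 163 FPKM and SRSF6, a related SR protein, at 51.9, 72.9 and 81.2, so members of the same family lay on opposite sides. The kinase CLK1, which phosphorylates SR proteins, stood at 21.8, 10.2 and 16.8 FPKM. No gene of either list reached an unadjusted p under 0.05.

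Of 18 TFIID and TBP partner genes, 4 were higher and 10 lower (median −0.25), with 1 in each direction at an unadjusted p under 0.05. TAF1, the largest TFIID subunit, stood at 5.44, 2.27 and 1.31 FPKM (−1.25, SE 0.38). TAF10, a histone-fold subunit shared with the SAGA coactivator, stood at 76.6, 126.9 and 190.1 FPKM (0.95, SE 0.34). TAF13 stood at 16.7, 27.8 and 28.9 FPKM. The subunits of the complex thus did not lie on 1 side.

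Of 18 genes of the IL6 family and its STAT3 targets, 6 were higher and 7 lower, with a median of 0 and with 0 and 2 genes at an unadjusted p under 0.05. With the GC trend removed, 3 were higher and 11 lower. Besides IL6, the shared receptor chain IL6ST (gp130) stood at 11.96, 7.19 and 4.22 FPKM (−1.03, SE 0.38, unadjusted p = 0.0162 in limma). The kinase JAK1 stood at 20.5, 17.3 and 12.7 FPKM. The cytokines CLCF1 and IL11, which use the same chain, were on the other side, at 9.97, 15.4 and 14.7 FPKM and at 12.4, 17.5 and 20.9. Of 15 NF-kB genes, 4 were higher and 6 lower (median −0.19), with 0 and 1 at an unadjusted p under 0.05, and 4 and 9 with the GC trend removed. BIRC3, an inhibitor of apoptosis and NF-kB target, stood at 17.4, 10.1 and 7.21 FPKM (−0.995, SE 0.43), and NFKB1 at 11.9, 8.49 and 6.63. The chemokine CXCL1 stood at 5.14, 6.07 and 10.7 FPKM. IL6 was therefore not followed in direction by all of its family or by all NF-kB genes.

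Of 14 genes of epithelial junctions and polarity, 10 were higher and 3 lower (median 0.29, and 0.18 with the GC trend removed), with 2 and 0 at an unadjusted p under 0.05. LLGL2, a basolateral polarity protein, stood at 5.85, 18.3 and 25.4 FPKM (1.65, SE 0.34, limma adjusted p = 0.126). ELF3, an epithelial ETS factor, stood at 48.1, 77.1 and 82.6 FPKM, and the junction adhesion molecule F11R at 7.85, 12.1 and 13.3. The tight junction scaffold TJP1 stood on the other side at 26.9, 20.4 and 14.3 FPKM. After scaling, 7 were higher and 3 lower, and with the GC trend removed 6 and 3. Of 14 cadherin, catenin and desmosome genes, 6 were higher and 5 lower, and after scaling 5 and 6, with 2 and 1 at an unadjusted p under 0.05. JUP (plakoglobin) stood at 4.69, 12.2 and 11.96 FPKM. N-cadherin, CDH2, stood at 14.5, 10.7 and 8.10 FPKM (−0.65, SE 0.38), R-cadherin, CDH4, at 5.83, 3.30 and 3.07, and the desmosomal cadherin DSG2 at 19.0, 14.8 and 10.4. CDH1 and these 3 cadherins thus lay on opposite sides of sh-NC.

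Of 20 mesenchymal genes and EMT factors (EMT is the epithelial-mesenchymal transition), 7 were higher and 8 lower (median −0.19). Among all 25 tested, 1 and 4 had an unadjusted p under 0.05. The split was 6 and 10 after scaling and 3 and 10 with the GC trend removed. SNAI2, a repressor of CDH1, stood at 5.23, 2.15 and 3.23 FPKM (−0.81, SE 0.35). NT5E, the surface nucleotidase CD73, stood at 33.1, 16.2 and 14.6 FPKM (−1.11, SE 0.41). ACTA2, smooth muscle actin, lay on the other side at 8.96, 20.2 and 23.1 FPKM (1.12, SE 0.40). Of 21 matrix genes, 9 were higher and 5 lower, which turned to 5 and 12 with the GC trend removed, and 1 and 4 tested genes had an unadjusted p under 0.05. FN1 (fibronectin) stood at 28.1, 56.5 and 71.0 FPKM and the laminin chain LAMA5 at 56.7, 85.3 and 144.7. SPARC stood at 21, 8 and 9.004 FPKM, and the fibrillin FBN2 at 6.01, 4.05 and 2.14.

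Of 14 integrins and adhesion receptors, 3 were higher and 9 lower (median −0.10), with 0 and 2 at an unadjusted p under 0.05. ITGA3, a laminin receptor chain, stood at 225, 137 and 128 FPKM (−0.83, SE 0.37), and ITGB3 at 5.16, 2.60 and 1.82 (−0.98, SE 0.36). ITGA2, a collagen receptor chain, stood at 6.41, 4.18 and 2.42 FPKM. The heparan sulfate proteoglycan SDC1 was on the other side at 58.4, 98.6 and 94.5 FPKM. The urokinase PLAU stood at 82.0, 47.0 and 43.9 FPKM (−0.90, SE 0.37).

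ERK feedback and AP-1 genes were mostly lower: of 19 genes, 4 were higher and 13 lower (median −0.28). Among all 28 tested, 0 and 4 had an unadjusted p under 0.05. FOSL1, an AP-1 subunit, stood at 136, 72.1 and 70.7 FPKM (−0.99, SE 0.31). ETV4, an ETS factor induced by ERK, stood at 38.9, 20.5 and 25.9 FPKM (−0.79, SE 0.33). SPRED1, an inhibitor of RAS signalling, stood at 6.22, 3.55 and 2.98 FPKM, and the phosphatase DUSP7 at 9.72, 6.33 and 5.40. The split was also 4 and 13 after scaling and was 2 and 14 with the GC trend removed. Of 27 growth factor ligands and receptors, 10 were higher and 13 lower (median −0.21), and 5 and 16 with the GC trend removed. Among all 34 tested, 1 and 4 had an unadjusted p under 0.05. EGFR stood at 19.8, 12.6 and 7.28 FPKM (−1.02, SE 0.45), the semaphorin and VEGF co-receptor NRP1 at 73.1, 45.2 and 37.1, the lymphatic growth factor VEGFC at 7.32, 3.30 and 3.89, and the ephrin EFNB2 at 5.29, 2.96 and 2.10. IGFBP7, which binds insulin-like growth factors, was on the other side at 6.66, 11.2 and 14.2 FPKM.

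Of 25 TGF-beta and BMP genes, 7 were higher and 11 lower (median −0.27, and −0.08 with the GC trend removed), with 1 and 0 at an unadjusted p under 0.05. PMEPA1, a feedback inhibitor induced by TGF-beta, stood at 24.6, 41.3 and 56.5 FPKM (0.88, SE 0.32). The inhibitors SMAD6 and BAMBI stood at 27.1, 37.8 and 55.02 FPKM and at 5.34, 8.77 and 11.1, while the inhibitor SMAD7 stood at 10.9, 9.73 and 6.98. The ligand TGFB2 stood at 18.2, 11.3 and 10.9 FPKM, the ligand TGFB1 at 89.5, 104.6 and 123.2, and the BMP transducer SMAD5 at 11.7, 7.65 and 6.45. Inhibitors and ligands of the pathway thus lay on both sides of sh-NC. SMAD7 and TGFB1 were named after their values were seen.

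Detoxification and antioxidant genes were more often higher than lower. Of 27 NRF2 targets and glutathione genes, 18 were higher and 4 lower (median 0.20), and after scaling 13 and 6. Among all 31 tested, 3 and 0 had an unadjusted p under 0.05. GPX4, the lipid hydroperoxidase, stood at 147, 245 and 361 FPKM (0.95, SE 0.35), sulfiredoxin SRXN1 at 105, 181 and 188, the efflux pump ABCC3 at 37.6, 63.3 and 70.9, and haem oxygenase HMOX1 at 32.4, 47.1 and 52.3. The cystine transporter SLC7A11, also an ATF4 target, was on the other side at 26.3, 17.1 and 13.0 FPKM. Of 21 aldo-keto reductases and aldehyde dehydrogenases, 13 were higher and 2 lower (median 0.16, and 0.07 with the GC trend removed). After scaling, 11 of them were higher and 3 lower, and 3 and 0 tested genes had an unadjusted p under 0.05. AKR1B10 stood at 191, 326 and 467 FPKM (0.96, SE 0.34), AKR1C1 at 68.3, 89.9 and 126, and ALDH3B1 at 101, 163 and 159.7. AKR1C genes are near copies of each other, and reads can be split between them.

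Of 20 xenobiotic and steroid enzymes, 11 were higher and 4 lower (median 0.23). Among all 29 tested, 5 and 0 had an unadjusted p under 0.05. EPHX1, the microsomal epoxide hydrolase, stood at 148, 300.3 and 300.6 FPKM, SRD5A3, a polyprenol reductase, at 5.34, 10.96 and 16.3 (1.11, SE 0.37), the sulfotransferase SULT1A1 at 6.21, 12.4 and 15.5, and POR, the electron donor of cytochromes P450, at 86.7, 138.8 and 144. Of 18 solute carriers and ABC transporters, 6 were higher and 6 lower, and among all 27 tested 4 and 0 had an unadjusted p under 0.05. SLC25A1, the mitochondrial citrate carrier, stood at 38.3, 74.0 and 90.9 FPKM (1.02, SE 0.34), and ABCB6, a porphyrin transporter, at 12.9, 23.3 and 28.0. The taurine carrier SLC6A6 was on the other side at 49.7, 40.9 and 28.3 FPKM.

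Stress-response genes of protein synthesis and folding were mostly lower. Of 35 unfolded protein and ATF4 genes, 7 were higher and 25 lower, with the lowest list median, −0.35, and 1 gene in each direction at an unadjusted p under 0.05. ATF4, the transcription factor of the integrated stress response, stood at 293, 165 and 199.7 FPKM. The amino acid carriers SLC7A1 and SLC38A2 stood at 20.2, 12.1 and 8.37 FPKM and at 45.3, 30.9 and 21.7. GDF15, a secreted stress cytokine, was on the other side at 88.2, 164 and 221 FPKM (1.03, SE 0.34). Of 20 aminoacyl-tRNA synthetases, 3 were higher and 14 lower (median −0.32). EPRS stood at 24.2, 15.1 and 10.4 FPKM (−0.95, SE 0.46) and AARS at 79.1, 59.8 and 53.7. Of 23 heat shock chaperone genes, 4 were higher and 15 lower (median −0.22). The mitochondrial chaperonin HSPD1 stood at 462, 363.2 and 362.5 FPKM, HSPB8 at 9.39, 4.25 and 5.68, and HSPB1 on the other side at 317, 390.4 and 545. In these 3 lists, 25, 17 and 16 genes were lower after scaling, and 26, 14 and 15 with the GC trend removed.

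Of 34 genes of G2 and mitosis, 8 were higher and 20 lower (median −0.23, and −0.09 with the GC trend removed), with 0 and 1 at an unadjusted p under 0.05. CENPF, a kinetochore protein, stood at 13.2, 7.80 and 5.56 FPKM (−0.95, SE 0.43), the spindle motor KIF11 at 16.5, 13.0 and 7.51, and the checkpoint kinase BUB1 at 25.5, 20.2 and 15.7. Of 38 S phase genes, 11 were higher and 18 lower (median −0.08). MCM10, which loads polymerase at origins, stood at 14.98, 9.47 and 7.19 FPKM, while E2F1 and cyclin E (CCNE1) were on the other side at 27.3, 39.6 and 47.7 FPKM and at 20.8, 29.3 and 31.2. No S phase gene reached an unadjusted p under 0.05.

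Of 13 tumour suppressor and driver genes of lung cancer, 5 were higher and 6 lower (median −0.16). Among all 16 tested, 2 and 2 had an unadjusted p under 0.05. CDK6, which phosphorylates RB, stood at 9.24, 4.02 and 2.40 FPKM (−1.34, SE 0.40, unadjusted p = 0.0051 in limma). The inhibitor CDKN2C and the p53 target CDKN1A (p21) stood at 13.7, 23.6 and 30.5 FPKM (0.86, SE 0.32) and at 127, 226 and 256 (0.86, SE 0.37). Cyclin D1, CCND1, stood at 113, 87.8 and 66.1 FPKM and cyclin D3, CCND3, at 176, 305 and 355. The RAS inhibitor NF1 stood at 8.92, 4.98 and 4.20 FPKM. Of 21 p53 targets, 10 were higher and 5 lower, and 8 and 8 after scaling, with 1 and 0 at an unadjusted p under 0.05. Of 11 listed histone genes, 8 were higher and 1 lower (median 0.22), with 1 and 0 at an unadjusted p under 0.05. H2AFJ, a replication-independent variant, is among the higher ones. HIST1H4C stood at 6.15, 10.3 and 17.9 FPKM.

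Of 24 Wnt, Notch and Hippo genes, 12 were higher and 7 lower (median 0.13). Among all 33 tested, 4 and 0 had an unadjusted p under 0.05. The ligand JAG2 stood at 4.43, 13.9 and 13.0 FPKM (1.34, SE 0.36). The target repressors HES1 and HES4 stood at 3.51, 8.73 and 13.4 FPKM (1.32, SE 0.36) and at 4.07, 8.22 and 19.2 (1.359, SE 0.40). The Hippo effector TEAD1 was on the other side at 17.8, 13.3 and 7.20 FPKM, as was CRIM1 at 62.5, 35.2 and 31.0. With the GC trend removed, 10 were higher and 9 lower, and the list median was −0.07.

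Of 23 annexin, S100 and galectin genes, 15 were higher and 5 lower (median 0.24), with 2 and 0 at an unadjusted p under 0.05, which are the called galectins. ANXA4 stood at 76.2, 127 and 137 FPKM and galectin-3, LGALS3, at 28.9, 39.5 and 46.2, while galectin-8, LGALS8, stood at 12.4, 9.42 and 5.70. Of 16 complement, coagulation and plasma protein genes, 7 were higher and 6 lower. Among all 30 tested, 3 and 2 had an unadjusted p under 0.05. C3, the central complement component, stood at 31.8, 75.5 and 132 FPKM (1.55, SE 0.47, unadjusted p = 0.00618 in limma), and TFPI, the tissue factor inhibitor, at 25.2, 15.7 and 7.97 (−1.15, SE 0.51). Of 17 interferon response genes, 10 were higher and 6 lower, with 1 and 0 at an unadjusted p under 0.05. The median over the 32 tested genes of this list was −0.08. IRF9 stood at 10.8, 18.8 and 27.9 FPKM and IFI35 at 34.3, 52.99 and 69.6, and ISG15 at 27.0, 34.4 and 76.0, where replicate 3 alone is far from sh-NC. SP100 was on the other side at 16.9, 9.89 and 11.1 FPKM. Of 14 MHC class I and antigen presentation genes, 6 were higher and 5 lower, and 2 and 5 with the GC trend removed, with the peptide trimmer ERAP1 at 8.96, 5.60 and 2.81 FPKM.

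Of 30 cholesterol and fatty acid genes, 7 were higher and 14 lower (median −0.13), with 2 and 0 at an unadjusted p under 0.05. The desaturase FADS2 was higher, at 74.1, 150.4 and 147.5 FPKM (0.93, SE 0.37), as was SREBF1, the lipogenic transcription factor, at 40.4, 66.2 and 72.9. Of 33 glycolysis and hypoxia genes, 12 were higher and 17 lower (median −0.12), and 4 and 18 with the GC trend removed, with 0 and 1 at an unadjusted p under 0.05. PDK1, a kinase that inhibits pyruvate dehydrogenase, stood at 5.41, 2.30 and 1.85 FPKM (−1.09, SE 0.40), and the glucose carrier SLC2A3 at 18.0, 11.8 and 10.0. Of 14 metal-handling genes, 3 were higher and 7 lower, with the ferritin heavy chain FTH1 higher at 7361, 9756 and 10980 FPKM. Of the 13 mitochondrially encoded mRNAs, 2 were higher and 1 lower. Of 4 lung and endoderm lineage genes at 5 FPKM, 2 were higher, FOXA2 (9.77, 13.3 and 15.5 FPKM) and AGR2, and 2 lower, KLF5 and SOX9. Over the 19 tested genes of that list, 2 and 0 had an unadjusted p under 0.05.

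Members shared features that the rule did not use. Over 8488 protein-coding genes the log2 fold change had a Spearman correlation of 0.43 with transcript GC content, −0.37 with transcript length and −0.34 with the genomic span of the gene, as a description in which all genes share the same 3 libraries. The median log2 fold change ran from −0.24 in 1225 genes of at most 40% GC to 0.26 in 1317 genes above 60%, and the latter held 40 of the 95 members that were higher by 1 log2 unit and 0 of the 34 that were lower. Higher members had a median GC content of 54.4% and lower members of 43.9%, with spans of 20.1 and 46.0 kb. The sh-TAF15 libraries also differed from each other along these features, with correlations of 0.30, −0.50 and −0.43 for replicate 3 minus replicate 2. The part of GC content and length in any single difference was not tested. After the GC trend was taken out, they were 0.01, −0.29 and −0.19 for the log2 fold change. By chromosome, the median ran from −0.15 on chromosome 13 to 0.23 on chromosome 19, where the median GC content was 60% and 18 of 616 genes were higher by 1 log2 unit and 1 lower. The median of chromosome 19 was 0.07 with the GC trend removed.

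**Figure D5:**
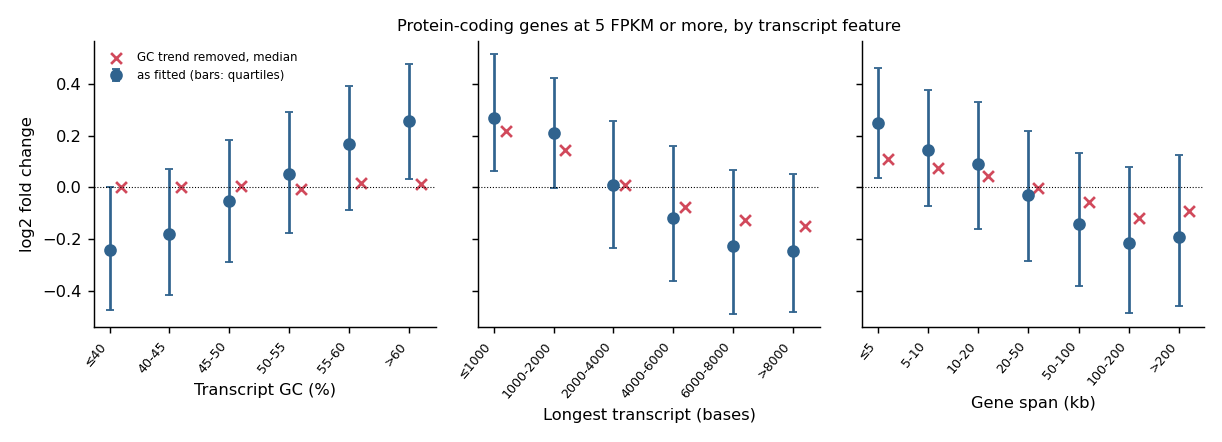
Median log2 fold change (blue, bars from the lower to the upper quartile) of protein-coding genes at 5 FPKM or more in bins of transcript GC percent, transcript length in bases and gene span in kb, with the median after removal of the GC trend in red. The median goes from −0.24 to 0.26 over the GC bins and from 0.27 to −0.25 over the length bins, and the red medians are flat over GC and sloped over length.

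Promoter windows were searched on both strands for the motifs shown with the sequences. The E-box CAGGTG, which reads CACCTG on the other strand, was present in 20.6% of all 27305 windows and in 17% of 6862 windows of protein-coding genes at 5 FPKM. It was found in 20 of 66 windows of members higher by 1 log2 unit or more (30.3%) and in 1 of 25 of those lower (4%). The LGALS9B and LGALS9C windows, near copies of each other, both hold it. Members higher by 1 log2 unit had a median transcript GC content of 58.2%, against 45.6% for those lower. The part of GC content in the motif shares was not tested. TGANTCA, which reads the same on both strands, was in 7.76% of all windows and 4.08% of those of the expressed genes. It was found in 2 of 66 windows of the higher (3.03%) and 5 of 25 of the lower members (20%), EMP1 among the latter with matches that begin 175 and 48 bases before the start. The NF-kB motif was in 0.579% of all windows and 0.525% of those of the expressed genes, in 0 of 66 and in 1 of 25, the IL6 window, where it begins 73 bases before the start. The AGR2 match begins 44 bases after the start. A match is a run of letters in a window, not a measured binding site, and the number of lower windows is small.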

How the data were processed

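RNA sequencing of 8 libraries was analysed, with 57879 Ensembl identifiers in each, of which 52324 were matched to a symbol. The deposited values are taken to be FPKM, from the values themselves, and how the authors made them from reads is not given in the sources used here. Per the submitters' processing notes, cutadapt 1.9.1, HISAT2 2.0.1, HTSeq 0.6.1 and GRCh37 were used. GENCODE 29 (GRCh38) gave names, gene types, transcript length and GC content.

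In 19 genes a 0 stood beside 100 FPKM or more in another library, and these were set aside. Genes at 1 FPKM or more in at least 2 libraries (13907) were put on a common scale with trimmed means of log2 ratios, and log2(FPKM + 1) was fitted with limma 3.58.1 in R 4.3.3 (eBayes with trend and robust) over all 4 groups. The contrast was sh-TAF15 minus sh-NC. It has 4 residual degrees of freedom, and sh-NC, with 1 library, borrows the spread of the other groups. A fold change on this scale understates that of weakly expressed genes. P values are two-sided and adjusted (Benjamini-Hochberg) across the 13907 genes, with calls at 0.05. With 2 libraries against 1, a permutation of samples cannot reach that level and was not run. The direction rule uses unscaled values. The GC trend was removed by lowess in an alternative. The limma fit was tested on simulated data. Statistical spread here is that between libraries the labels call biological replicates.

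The genes named are the target identifier, IL6, CDH1 and EWSR1, the 15 members per direction with the largest difference in the nearer library (with a symbol, no value of 0, and a difference above the gap between replicates), and up to 5 members of each of 40 gene lists with the lowest p. Other genes (LGALS9, FTL, the keratins, EPCAM, CPS1, NQO1, CDKN2A, SMAD7, TGFB1 and genes at the 5 FPKM limit) were added for checks. Some genes that the rule takes are not reported here. Members and lists were chosen with earlier results of these data known.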

Additional observations from a re-analysis of the deposited data

How the results depend on the processing

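With 1 sh-NC library, every difference rests on it. All fits here use limma. The number of genes called higher, 7 with the settings reported, was 19 with a pseudocount of 0.1, 18 with no filter on low values, 22 among genes at 5 FPKM, 1 in a fit of the 3 sh libraries, and 4 with the GC trend removed. The number of genes called lower in sh-TAF15, reported as 1, was 2, 169, 12, 0 and 0 in the same order, 6 with a pseudocount of 5 and 2 with no scaling. The 0 calls stand beside 457 genes (3 sh libraries) and 354 genes (GC trend removed) lower at an unadjusted p under 0.05. Leaving out 1 library gave 4 to 39 higher and 0 to 10 lower calls. The extremes came from vector replicate 2 (39 and 10 without it) and vector replicate 3 (4 and 0). Without vector replicate 1 the counts were 12 and 5, without either TIF1γ library 4 and 0, without sh-TAF15 replicate 2 they were 5 and 2, and without replicate 3 they were 7 and 2. The libraries compared share only replicate number 2. Among the vector, TIF1γ and sh-TAF15 groups, replicate 3 minus replicate 2 had correlations between groups from −0.319 to 0.154. There is no sh-NC replicate 3, so a pairing of sh-NC with sh-TAF15 could not be examined in this way. The fit with a replicate block called 38 higher and 14 lower, and the block with the GC trend removed 4 and 0, where 211 genes were lower at an unadjusted p under 0.05.

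Members lower by 1 log2 unit or more, 34 as reported, numbered 52 with a 1 FPKM limit, 22 with a 10 FPKM limit and 8 with a pseudocount of 5, and those higher, 95 as reported, numbered 34 with that pseudocount. With only 1 sh-TAF15 library used, 52 to 227 were lower and 118 to 405 higher, the larger counts from replicate 3 alone. Scaling moved the share of higher members from 55.2% to 48.4%. Of 3248 refits of 203 named genes, 3174 kept direction and side of the threshold, 54 passed it, 16 (all LGALS9B or LGALS9C) lost it, and 4 changed sign. In the block with the GC trend removed, the log2 fold change of EWSR1 was 0.179, the log2 fold change of PLK3 was −0.0151 and the log2 fold change of UCHL1 was −0.0311. The log2 fold change of MT-CO2 was −0.0251 without sh-TAF15 replicate 2 and 0.136 without replicate 3. The cause was not tested. The unknown read depth limits what can be said of genes near 0 FPKM.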

Other observations

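The vector libraries, which carry the control construct of the TIF1γ lines, give a second view of the level of the largest members. These are values set side by side, with no test. For CPLX2 the vector libraries stood at 432, 331 and 614 FPKM, for RAP1GAP at 53.9, 46.3 and 84.1, and for AGR2 at 128.5, 148 and 170.5, all far above both sh-NC and sh-TAF15. For IL6 they stood at 0.301, 0.226 and 0.674 FPKM and for EMP1 at 5.36, 5.89 and 4.55, below both. CDH1 stood at 5.81, 4.27 and 10.4 FPKM, the range in which the sh-TAF15 libraries lie. HPD stood at 3.28, 2.98 and 2.43 FPKM, near sh-NC, and PLIN4 at 0.265, 0.260 and 0.403, below both.

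Calls outside the members were MSANTD3-TMEFF1, a readthrough gene of 2 neighbours that rose from 0.0101 to 3.92 and 3.93 FPKM (limma adjusted p = 0.0416), and 5 entries that are pseudogenes or have no annotation. The pseudogene HSPB1P1 was listed at 0 in sh-NC and at 11.2 and 17.1 FPKM in sh-TAF15, while its parent gene HSPB1 stood at 317, 390.4 and 545. The pseudogene AC004890.2 stood at 7.92 FPKM in sh-NC and at 0.348 and 0.444 in sh-TAF15 (limma adjusted p = 0.0198).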
